A study of Mus musculus with 9 samples.

Results

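The vascular endothelial growth factor (VEGF) genes described here are 7 genes picked by symbol: the ligands Vegfa, Vegfb and Vegfc, the receptor tyrosine kinases Flt1 and Kdr, and the co-receptors Nrp1 and Nrp2. All 7 were found among the 35125 genes with an NCBI identifier in the deposited table, and all 7 were among the 14013 genes that passed a filter on low values. VEGF ligands are secreted dimers that bind receptor tyrosine kinases on endothelial cells and drive the growth, permeability and survival of blood vessels. Kdr (VEGFR2) carries most of the angiogenic signal of Vegfa, whereas Flt1 (VEGFR1) binds Vegfa tightly with weak kinase activity and is also made as a soluble trap. Neuropilins present VEGF to these receptors and also bind class 3 semaphorins, which guide axons. In the brain, Vegfa is made largely by astrocytes and neurons while its receptors sit mainly on the endothelium, and the ligand has been studied as a factor linked to exercise.

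RNA came from the medial prefrontal cortex of mice in 3 groups with 3 libraries each. The running model was labelled exercise and, by the study's stated aim, concerned running in mice exposed to chronic unpredictable stress. The CUS model was labelled stress, and the control was labelled no stress. All 9 libraries also carried the terms 4week and week8, whose meaning the labels do not give; strain, sex and age are not stated either, nor is the stress schedule of the running mice. Since the labels do not say whether libraries come from different animals, the p-values speak only of spread among libraries, part of which may be technical.

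Values are FPKM, fragment counts divided by transcript length and library size, so levels can be set side by side between genes. The FPKM of all genes summed to 370441 to 378824 in running, 386366 to 423257 in CUS and 377545 to 390537 in control libraries. Which groups overlapped in level was read from FPKM and was not recomputed after division by these sums. The smallest steps between low values imply roughly 20800000 to 22600000 fragments per library. The 10 neuronal markers summed to between 3700 and 4118 FPKM in every library, and all 20 endothelial markers, among them Pecam1, Cdh5 and Cldn5, were detected in all 9. Summed endothelial markers ranged over 177 to 219 FPKM in running, 196 to 223 FPKM in CUS and 211 to 237 FPKM in control libraries. In bulk tissue, fewer cells of a type and less RNA per cell cannot be told apart. One library stood apart on several measures: CUS replicate 3 received the lowest quality weight of the 9 (0.244) and had the lowest Flt1, Kdr and Nrp2 levels. Several differences that move by over 1.5 times without it, though not all, are therefore also given that way. CUS replicate 2 had the next lowest weight (0.575). Leaving out CUS replicate 2 raised the genes at a limma adjusted p under 0.05 for running minus CUS from 1 to 1518. Control replicate 3 had 218 FPKM of summed choroid plexus markers, against at most 42.1 FPKM in any other library.

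The 7 genes are protein-coding and lie on 5 chromosomes of GRCm38. Vegfa lies at chr17:46016993-46032377, Vegfb at chr19:6982472-6987651 and Vegfc at chr8:54077532-54186454. Flt1 lies at chr5:147561604-147726438 and Kdr on the same chromosome at chr5:75932827-75979072, and Nrp1 lies at chr8:128358591-128505476 and Nrp2 at chr1:62703317-62818692. The promoters of Flt1, Kdr and Nrp2 are shown because these 3 genes varied together across libraries, a pattern that other genes shared, as described below. Each is the RefSeq window of 300 bases on GRCm38.p6, from 250 bases before to 50 bases after the start site, read 5′ to 3′ on the minus strand for Flt1 (chr5:147725962-147726261) and Kdr (chr5:75978406-75978705) and on the plus strand for Nrp2 (chr1:62703067-62703366). The windows of Flt1 and Kdr lie wholly within the gene bounds given above. Flt1 has 6 RefSeq transcripts and Kdr has 3, so positions count from the start site of the window shown only. Capitals mark matches, on either strand, to the hypoxia response cores ACGTG and GCGTG, the GC box GGGCGG, the ETS core AGGAA, the TATA box TATAAA and the cyclic AMP response element TGACGTCA.
Flt1: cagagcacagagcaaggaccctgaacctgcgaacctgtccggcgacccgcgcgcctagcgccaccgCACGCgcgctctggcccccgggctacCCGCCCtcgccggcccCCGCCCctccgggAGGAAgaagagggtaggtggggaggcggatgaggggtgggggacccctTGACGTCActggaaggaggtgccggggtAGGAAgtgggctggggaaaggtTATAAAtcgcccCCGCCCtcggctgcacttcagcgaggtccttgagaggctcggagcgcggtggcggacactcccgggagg
Kdr: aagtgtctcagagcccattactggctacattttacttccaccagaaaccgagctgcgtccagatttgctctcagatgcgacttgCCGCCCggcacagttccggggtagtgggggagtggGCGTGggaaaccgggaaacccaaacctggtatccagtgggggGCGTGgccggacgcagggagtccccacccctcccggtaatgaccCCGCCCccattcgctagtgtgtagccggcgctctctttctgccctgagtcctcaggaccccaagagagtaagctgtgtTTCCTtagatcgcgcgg
Nrp2: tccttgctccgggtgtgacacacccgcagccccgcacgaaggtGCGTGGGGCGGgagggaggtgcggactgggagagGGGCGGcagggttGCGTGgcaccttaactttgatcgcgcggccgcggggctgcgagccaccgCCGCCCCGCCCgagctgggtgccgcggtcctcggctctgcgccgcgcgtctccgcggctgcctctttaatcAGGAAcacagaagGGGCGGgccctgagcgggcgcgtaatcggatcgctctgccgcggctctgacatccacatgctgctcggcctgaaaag
The AGGAA core, which ETS factors active in endothelium can bind, was in all 3 windows, and 66.7% of 32851 promoter windows of the same length held it. Flt1 had matches at positions -129 and -53 from its start site, Nrp2 had one at -40, and Kdr had one on the reverse strand at 33 bases past its start. TGACGTCA was in 1.8% of all windows and, of these 3, in that of Flt1 at -81, which also held TATAAA at -31 (13.6% of windows). GGGCGG, held by 35.7% of windows, matched 3 times in Flt1, 2 times in Kdr and 5 times in Nrp2. GCGTG matched once in Flt1 and 2 times each in Kdr and Nrp2, and 32.4% of windows held it, while ACGTG (19.6% of windows) was in none of the 3. A match describes the letters only.

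Vegfb had the highest level of the 7 genes. Across the 9 libraries it averaged 64.5 ± 6.39 FPKM (SD, n = 9), higher than 91.4% of the tested genes. Vegfa followed at 24.9 ± 1.62 FPKM, and Flt1 at 10.2 ± 2.5 FPKM led the receptors. The ranges of these 3 genes did not touch. Nrp1 averaged 5.23 ± 0.492 FPKM and Nrp2 averaged 4.53 ± 0.59 FPKM. Their ranges overlapped each other and the low end of Flt1, which lay in CUS replicate 3. Kdr at 2.2 ± 0.547 FPKM and Vegfc at 1.98 ± 0.319 FPKM were lowest and could not be ordered, since their ranges overlapped. Flt1 and Kdr varied most between libraries, with coefficients of variation of 24.5% and 24.9%, and Vegfa varied least, at 6.51%. Counting error estimated from the implied depth was about 2.62% for Flt1 and 6.11% for Kdr, so most of their spread exceeded it. Vegfc rested on only about 95 fragments per library, a counting error near 10.3%.

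**Figure D1:**
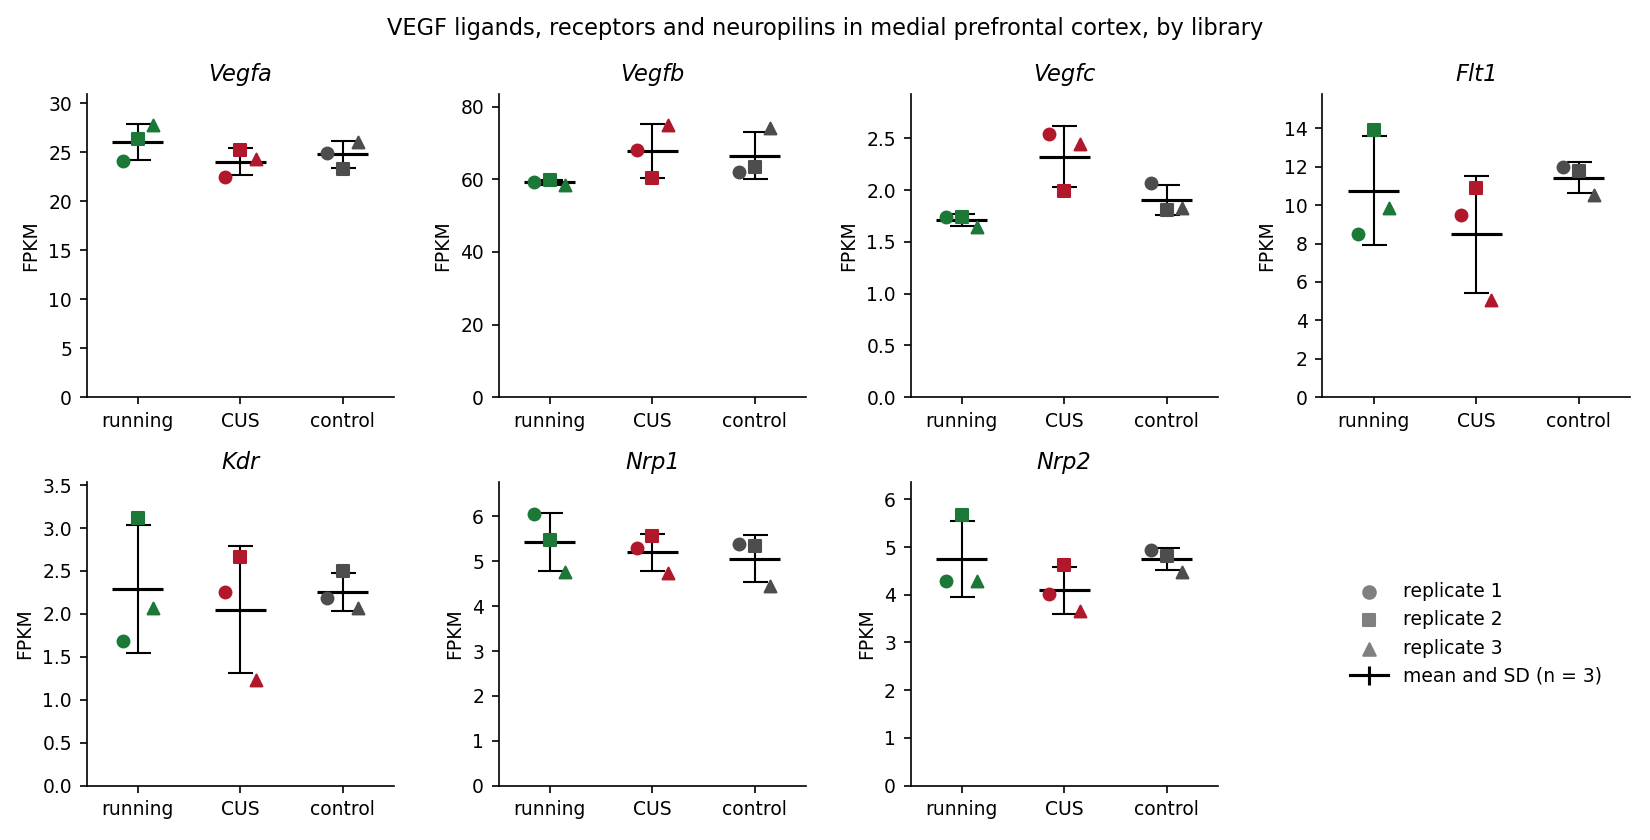
FPKM of each of the 7 genes in the 9 libraries, with running, CUS and control from left to right in each panel. Points are libraries, bars are the group mean and SD (n = 3), and every y axis starts at 0. CUS replicate 3 (red triangle) lies lowest for Flt1, Kdr and Nrp2, and the running libraries lie below all others for Vegfb and Vegfc.

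None of the 7 genes passed an adjusted p of 0.05 in any of the 3 comparisons (limma on log2(FPKM + 0.5), Benjamini-Hochberg adjustment over the 14013 genes). The background was nearly as empty: 0.00714% of tested genes passed for running minus CUS, 0.00714% for CUS minus control and 0.0214% for running minus control. At an unadjusted p under 0.05, 2 of the 7 genes passed for running minus CUS, where 23.5% of all genes did. For CUS minus control 1 of 7 passed, beside 14.7% of all genes, and for running minus control 0 of 7 passed, beside 11.6%. Groups that did not overlap gave a similar picture, with 2 of 7 for running and CUS, both lower in running (24.9% of all genes, and 15.9% counting those lower). For CUS and control there were 0 of 7 (19.7% of all genes), and for running and control 2 of 7, both lower in running (22.4% of all genes, and 11.9% counting those lower). Differences lay below 0 for 2 of 7 genes for running minus CUS (57.8% of all genes), for 4 of 7 for CUS minus control (44.1%) and for 5 of 7 for running minus control (56.2%). With 7 genes, these counts do not stand apart from the shares over all genes.

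**Figure D2:**
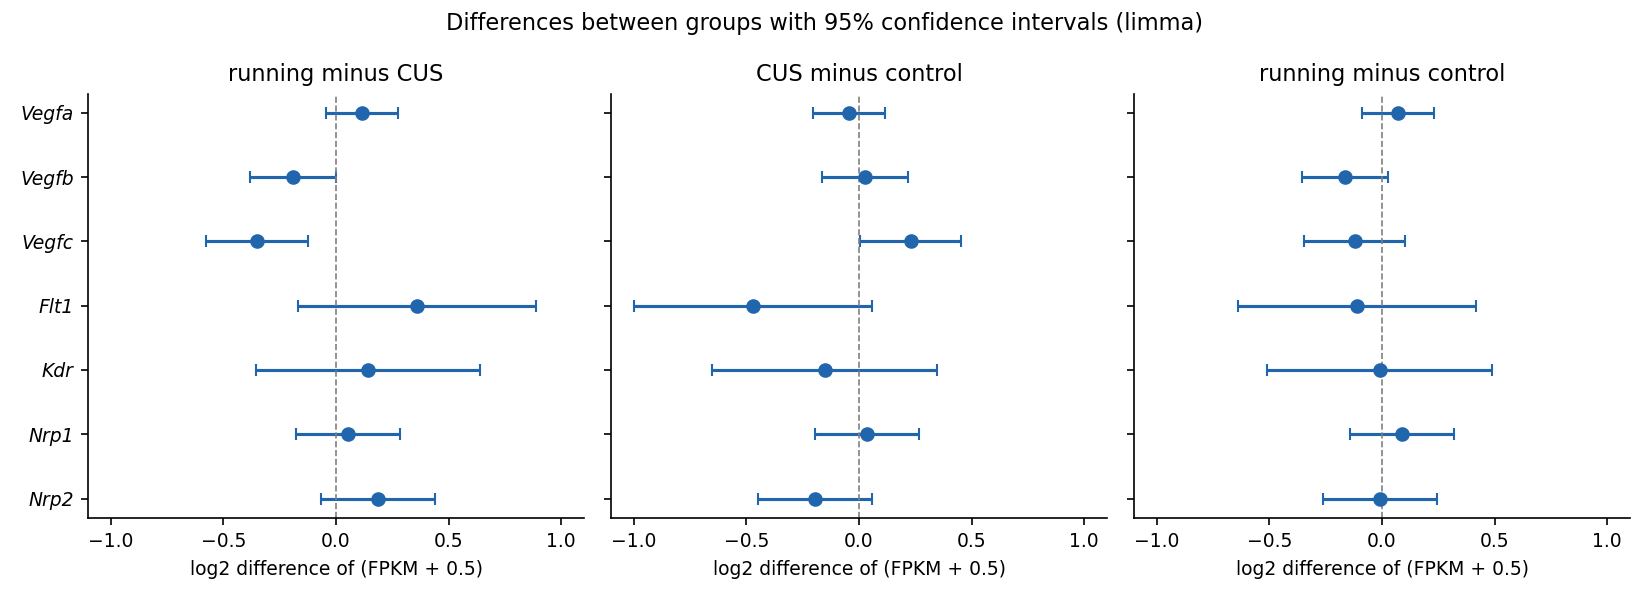
Differences of log2(FPKM + 0.5) with 95% confidence intervals from limma, for the 7 genes (down the page) in the 3 comparisons (panels). Points are differences between group means of 3 libraries each; intervals for Flt1 and Kdr are the widest, and the interval of Vegfc lies below 0 for running minus CUS (-0.58 to -0.13).

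Of Vegfa, Vegfb and Vegfc, Vegfc had the smallest p for running minus CUS. Vegfc, which acts mainly through Flt4 on lymphatic and developing vessels and can also bind Kdr, had 1.74, 1.74 and 1.64 FPKM in running, against 2.54, 1.99 and 2.44 FPKM in CUS and 2.07, 1.81 and 1.83 FPKM in control libraries. On the FPKM scale all 3 running values lay below all 6 of the others, and the CUS and control values overlapped. Control replicate 3 (1.83 FPKM) had a summed FPKM of all genes of 390537. Running replicate 2 (1.74 FPKM) had 370441, a gap of similar relative size. The difference running minus CUS was -0.35 (SE 0.102, limma adjusted p = 0.0974), a level 21.6% lower on the FPKM + 0.5 scale. The running libraries differed among themselves by a coefficient of variation of 3.38%, below the estimated counting error of 10.3%. Vegfc was called lower in running than in CUS with library quality weights (-0.42, limma adjusted p = 0.0194) and without CUS replicate 2 (-0.44, limma adjusted p = 0.0330). The number of genes called among all tested moved too, to 2178 with the weights and 1518 without CUS replicate 2. CUS minus control was 0.23 (SE 0.102, limma adjusted p = 0.335), and running minus control was -0.12 (limma adjusted p = 0.678).

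Vegfb, which binds Flt1 and neuropilin but not Kdr and is tied to fatty acid handling and cell survival more than to vessel growth, had 59.2, 59.9 and 58.4 FPKM in running libraries. CUS libraries had 68.1, 60.4 and 75.1 FPKM, and control libraries had 62.1, 63.5 and 74.1 FPKM. On the FPKM scale the running libraries were again the lowest, with no overlap with either group, though CUS replicate 2 exceeded the highest of them by under 1 FPKM. CUS replicate 2 also had the larger summed FPKM of all genes, 386366 against 370441 in running replicate 2, a gap larger in proportion. Running minus CUS was -0.19 (SE 0.0865, limma adjusted p = 0.213) and running minus control was -0.16 (limma adjusted p = 0.493). With the trend of each library with transcript length and GC content removed, running minus CUS was -0.03 (limma adjusted p = 0.856). Without CUS replicate 3 running minus CUS was -0.12, and without control replicate 3 running minus control was -0.0851. CUS minus control was 0.03 (95% confidence interval -0.16 to 0.22, limma adjusted p = 0.892) and turned to -0.04 after rescaling to TPM.

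Vegfa, the main angiogenic ligand and a target of hypoxia-inducible factors, was the steadiest of the 7. It had 24.1, 26.3 and 27.8 FPKM in running, against 22.5, 25.3 and 24.3 FPKM in CUS and 25.0, 23.3 and 26.1 FPKM in control libraries. The 3 groups overlapped, with running replicate 3 highest and CUS replicate 1 lowest. Running minus CUS was 0.11 (95% confidence interval -0.04 to 0.27, limma adjusted p = 0.356), and running minus control was 0.07 (95% confidence interval -0.09 to 0.23, limma adjusted p = 0.736). CUS minus control was -0.04 (95% confidence interval -0.20 to 0.11, limma adjusted p = 0.773). These intervals are narrow beside those of the receptors, but they do not show that Vegfa was the same in the groups. Running minus CUS was 0.07 without either CUS replicate 1 or running replicate 3.

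The relatives of these ligands and receptors were measured too. Vegfd, a ligand of Flt4 close to Vegfc, had 3.93, 3.88 and 3.20 FPKM in running libraries, 5.21, 5.24 and 4.91 FPKM in CUS libraries and 3.73, 4.03 and 3.54 FPKM in control libraries. The CUS libraries lay above all 6 others, and the running and control libraries overlapped. Running minus CUS was -0.43 (SE 0.0901, limma adjusted p = 0.0776) and CUS minus control was 0.40 (limma adjusted p = 0.234). Neither passed, although running minus CUS did with library quality weights (-0.49, limma adjusted p = 0.0133) and without CUS replicate 2 (-0.42, limma adjusted p = 0.0381). Those settings called 2178 and 1518 of the 14013 tested genes. Pgf, which binds Flt1 alone among the kinases, averaged 1.81 ± 0.315 FPKM in running, 2.33 ± 0.473 FPKM in CUS and 1.93 ± 0.323 FPKM in control libraries (SD, n = 3 each), and the groups overlapped. Flt4 (VEGFR3), the receptor for Vegfc and Vegfd, was near the filter at 0.783 ± 0.188 FPKM in running, 0.677 ± 0.215 FPKM in CUS and 0.900 ± 0.0781 FPKM in control libraries. Its CUS minus control difference was -0.27 (limma adjusted p = 0.420), and -0.11 without CUS replicate 3.

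**Figure D3:**
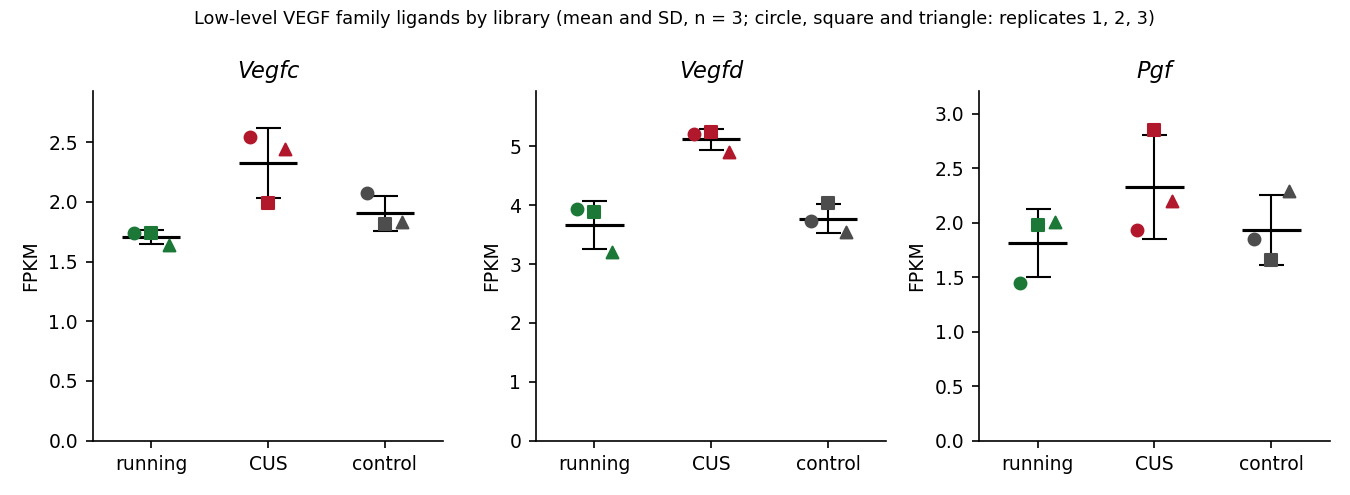
FPKM of the low-level ligands Vegfc, Vegfd and Pgf in the 9 libraries, with running, CUS and control from left to right. Points are libraries, bars are the group mean and SD (n = 3), and the y axes start at 0. The 3 CUS libraries lie at 4.91 to 5.24 FPKM for Vegfd, above the other 6, and the 3 running libraries lie at 1.64 to 1.74 FPKM for Vegfc, below the other 6.

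Among the receptors, Flt1 had the highest level. It had 8.48, 13.9 and 9.87 FPKM in running, against 9.51, 10.9 and 5.06 FPKM in CUS and 12, 11.8 and 10.5 FPKM in control libraries. The 3 groups overlapped, and CUS replicate 3 and running replicate 2 formed the low and high ends. Running minus CUS was 0.36 (SE 0.240, limma adjusted p = 0.385) and 0.05 (limma adjusted p = 0.905) without CUS replicate 3. It was 0.56 (limma adjusted p = 0.140) without CUS replicate 2 and 0.17 without running replicate 2. CUS minus control was -0.47 (95% confidence interval -1.0 to 0.06, limma adjusted p = 0.368), and -0.16 (limma adjusted p = 0.762) without CUS replicate 3. As each library was left out it ranged from -0.67 to -0.16. Running minus control was -0.11 (95% confidence interval -0.64 to 0.42, limma adjusted p = 0.889), too wide an interval to exclude sizeable differences either way.

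Kdr had 1.68, 3.12 and 2.07 FPKM in running, against 2.26, 2.66 and 1.23 FPKM in CUS and 2.19, 2.5 and 2.07 FPKM in control libraries. Its lowest and highest libraries were those of Flt1, and the groups overlapped. Running minus CUS was 0.14 (95% confidence interval -0.36 to 0.64, limma adjusted p = 0.735) and -0.11 without CUS replicate 3, and CUS minus control was -0.15 (limma adjusted p = 0.746) and 0.10 without it. Running minus control was -0.01 (95% confidence interval -0.51 to 0.49, limma adjusted p = 0.993).

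The co-receptors differed less between libraries. Nrp1, a co-receptor for Vegfa and Sema3a, had 6.05, 5.47 and 4.76 FPKM in running, against 5.30, 5.56 and 4.74 FPKM in CUS and 5.39, 5.34 and 4.46 FPKM in control libraries. The groups overlapped, and its differences lay between 0.04 and 0.09 in the 3 comparisons (limma adjusted p = 0.771 to 0.878). Nrp2, which serves Vegfc and Sema3f, had 4.29, 5.68 and 4.28 FPKM in running, against 4.01, 4.62 and 3.65 FPKM in CUS and 4.93, 4.82 and 4.48 FPKM in control libraries. Running replicate 2 was highest and CUS replicate 3 lowest, as for Flt1 and Kdr, and the groups overlapped. Its differences were 0.19 for running minus CUS (limma adjusted p = 0.347), -0.20 for CUS minus control (limma adjusted p = 0.416) and -0.01 for running minus control (limma adjusted p = 0.988). Without CUS replicate 3, running minus CUS was 0.12 and CUS minus control was -0.12, and without running replicate 2, running minus CUS was 0.0644. The library protocol does not mark strand. Reads of Nrp2 and of the antisense gene Gm29083 that overlaps it can therefore not be told apart. The overlap spans 3351 bases, and Gm29083 averaged 0 FPKM in the deposited values. Gm37121 overlaps Nrp2, and Mir1903 overlaps Nrp1, on the same strand.

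Flt1, Kdr and Nrp2 followed the same libraries up and down. Over the 9 libraries, Flt1 and Kdr correlated with Pearson r = 0.93 (exact permutation p = 0.000502, adjusted over 28 relations 0.0140) and Spearman rho = 0.79 (exact permutation p = 0.0141, adjusted 0.168). Without CUS replicate 3 and running replicate 2, the 2 libraries farthest from the median of Flt1, r was 0.72 over 7 libraries. Without CUS replicate 3 alone it was 0.85 over 8, with an adjusted exact permutation p of 0.127, and after subtracting each group's mean it was 0.98 over the 9. Flt1 and Nrp2 correlated with r = 0.89 (exact permutation p = 0.00108, adjusted 0.0152) and rho = 0.95 (exact permutation p = 0.000353, adjusted 0.00988), and r was 0.85 without the same 2 libraries. Kdr and Nrp2 gave r = 0.84 (exact permutation p = 0.00740, adjusted 0.0430) and rho = 0.70 (exact permutation p = 0.0403, adjusted 0.202), and r was 0.41 without those 2 libraries, so that relation rests on them. It passed in 4 of 15 alternatives and did not in 11, where the adjusted exact permutation p reached 0.310, while Flt1 and Kdr passed in 12 of 15 and Flt1 and Nrp2 in 11 of 15. None of the other pairs of the 7 genes passed an adjusted p of 0.05. The points of such a correlation share each library's depth and composition. The pattern was not particular to these 3 genes. Prrc2a, Cic and Smarcc2, none of them an endothelial marker of the list, followed Flt1 more closely than Kdr did (r = 0.99, 0.99 and 0.98). Smarcc2 also followed Kdr (r = 0.98). The share of all genes with as high an r was not counted. With length and GC trends removed, Flt1 and Kdr kept r = 0.90 (adjusted exact permutation p = 0.00597), whereas Flt1 and Nrp2 gave 0.71 (adjusted exact permutation p = 0.176).

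The level of endothelial markers ran with Kdr and Flt1 over all 9 libraries, but the relation depended on the setting. The endothelial score, the mean of log2(FPKM + 0.5) of 20 markers relative to the mean over the 9 libraries, was -0.23, 0.19 and -0.22 in running libraries, 0.12, 0.05 and -0.24 in CUS libraries and 0.04, 0.13 and 0.15 in control libraries. It was low in running replicates 1 and 3 and in CUS replicate 3, and highest in running replicate 2. Its correlation with Kdr was r = 0.79 (exact permutation p = 0.00564, adjusted 0.0430) and rho = 0.74 (exact permutation p = 0.0263, adjusted 0.184), and r was 0.51 without CUS replicate 3 and running replicate 1. With Flt1 it was r = 0.73 (exact permutation p = 0.00768, adjusted 0.0430) and rho = 0.70 (exact permutation p = 0.0433, adjusted 0.202), and r was 0.48 without the same libraries, so both relations rest in part on those libraries. Each of these 2 relations passed an adjusted p of 0.05 in 7 of 15 alternatives and did not in 8, with adjusted exact permutation p up to 0.310 without CUS replicate 3. With Nrp2 it was r = 0.64 (exact permutation p = 0.0626, adjusted 0.221) and rho = 0.62 (exact permutation p = 0.0857, adjusted 0.300). For the other 4 genes r lay between -0.15 and 0.08. After subtracting each group's mean, r with the score was 0.89 for Kdr, 0.86 for Flt1 and 0.81 for Nrp2 over the 9 libraries. These values were not recomputed with libraries left out. Of the single markers, 18 of 20 had a positive r with Flt1 and 19 of 20 with Kdr, with medians of 0.58 and 0.63, where the medians over all tested genes were -0.10 and -0.06. The part of endothelial content in the receptor levels was not tested.

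**Figure D4:**
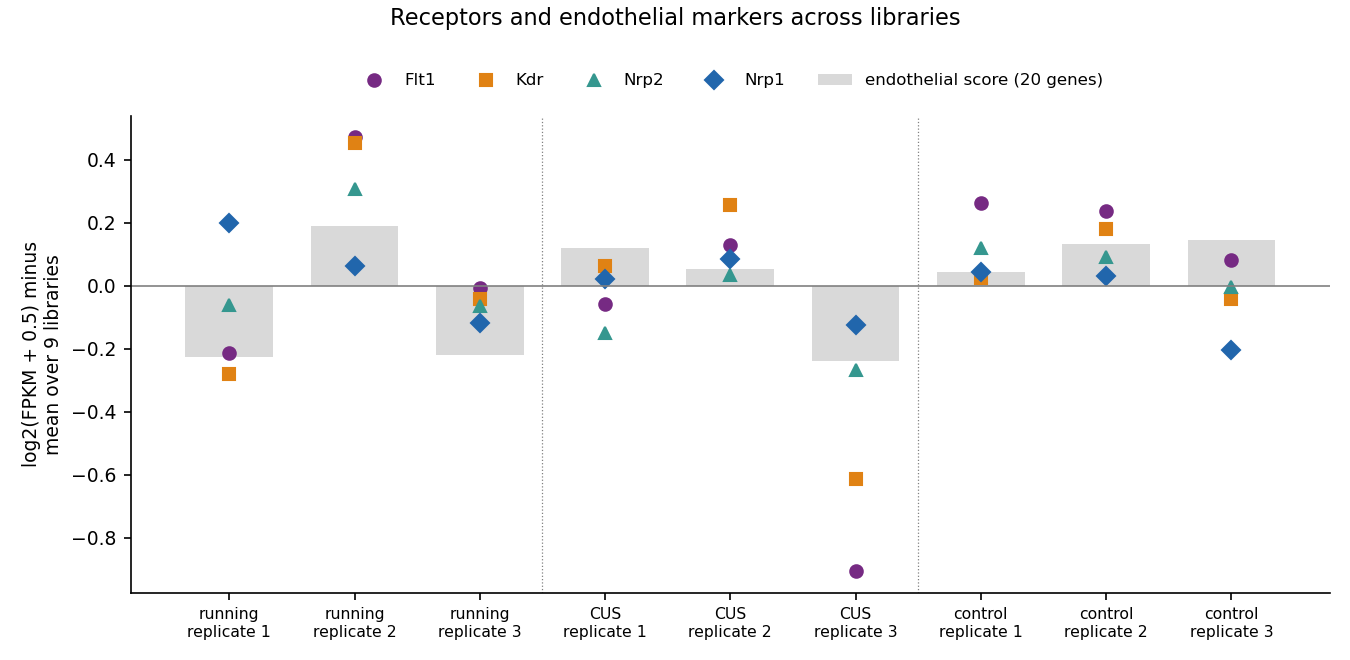
Level of Flt1, Kdr, Nrp2 and Nrp1 in each library (points) and the endothelial score of 20 markers (grey bars), as log2(FPKM + 0.5) minus the mean over the 9 libraries. Flt1, Kdr and Nrp2 are highest in running replicate 2 and lowest in CUS replicate 3, where the endothelial score is -0.24; Nrp1 does not follow them.

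Within a library, the ratio of Flt1 to Kdr was steadier than either gene. It was 5.05, 4.46 and 4.77 in running, against 4.21, 4.10 and 4.11 in CUS and 5.48, 4.71 and 5.08 in control libraries. The CUS libraries lay below all 6 others. Their SD was 0.0595 on a mean of 4.14, a spread below the estimated counting error of Kdr alone (6.11%). The gap between 4.21 in CUS and 4.46 in running was close to that error in size. The mean ratio was 0.62 higher in running than in CUS and 0.95 lower in CUS than in control, each with an exact permutation p of 0.1 (two-sided), the smallest that 3 against 3 libraries allow. The ratio of Nrp1 to Nrp2 averaged 1.27 ± 0.0627 in CUS and 1.07 ± 0.0611 in control libraries (SD, n = 3 each), with no overlap (exact permutation p = 0.1), and the running libraries spanned 0.963 to 1.41. The ratio of Vegfa to Vegfb averaged 0.441 ± 0.0342 in running, 0.357 ± 0.0530 in CUS and 0.374 ± 0.0254 in control libraries. Running and control did not overlap for it (exact permutation p = 0.1), while running and CUS did (exact permutation p = 0.2). Vegfb made up 68.1 ± 1.55% of the summed FPKM of the 3 ligands in running, 71.9 ± 2.64% in CUS and 71.3 ± 1.5% in control libraries. Running and control did not overlap for this percentage or for the summed FPKM of the 3 ligands (exact permutation p = 0.1 each). Unlike the ratios, the ligand sum also depends on each library's summed FPKM of all genes. The ligand sum, the percentage and the ratio of Vegfa to Vegfb all contain Vegfb, so they are not separate results. The ratio of Vegfa to Kdr averaged 12.1 ± 3.18 in running, 13.1 ± 5.78 in CUS and 11.1 ± 1.66 in control libraries. It overlapped in all 3 comparisons (exact permutation p = 0.7 to 0.8). In all, 6 ratios and sums were set side by side in 3 comparisons, and no correction could bring an exact p of 0.1 below the threshold. The share of other gene pairs whose ratios did not overlap was not computed.

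**Figure D5:**
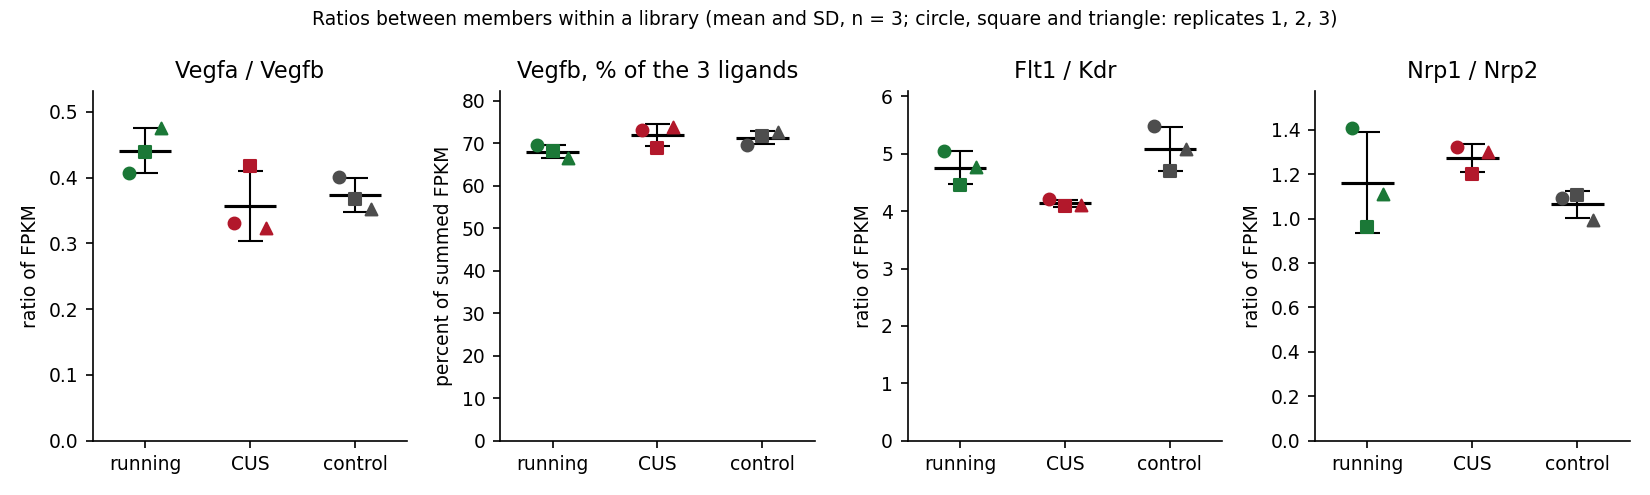
Ratios of FPKM between genes within each library, and Vegfb as a percentage of the summed FPKM of Vegfa, Vegfb and Vegfc. Running, CUS and control run from left to right, points are libraries, bars are the group mean and SD (n = 3), and the y axes start at 0. For Flt1 over Kdr the CUS libraries lie at 4.10 to 4.21, below the other 6.

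Genes of the wider pathway were counted from lists of known members, and none of them passed the adjusted threshold in any comparison with all 9 libraries weighted equally. Of 45 genes that transmit the VEGF signal inside the cell, 22 lay above 0 and 23 below for running minus CUS, with a median log2 difference of -0.00, beside -0.03 over all tested genes. The corresponding counts were 25 above and 20 below for CUS minus control (median 0.02, all genes 0.02) and the same for running minus control (median 0.03, all genes -0.02). The first 2 medians changed sign after TPM rescaling, and the medians for running minus CUS and running minus control changed sign with some single libraries left out. Prkca, a kinase downstream of phospholipase C, averaged 31.0 ± 2.98 FPKM in running and 22.9 ± 1.78 FPKM in CUS libraries (SD, n = 3 each; limma adjusted p = 0.0776, and 0.0267 without CUS replicate 2). Hras went the other way, at 93.7 ± 4.85 FPKM in running and 109 ± 6.05 FPKM in CUS libraries. Its limma adjusted p was 0.0963, and 0.0447 without CUS replicate 2, a setting that called 1518 of the 14013 tested genes. Mapk3 (Erk1) averaged 143 ± 12.5 FPKM in CUS and 112 ± 5.65 FPKM in control libraries (SD, n = 3 each; limma adjusted p = 0.253). Ptprb, an endothelial phosphatase that acts on Tek and Kdr, averaged 2.70 ± 0.607 FPKM in CUS and 3.94 ± 0.124 FPKM in control libraries (SD, n = 3 each; limma adjusted p = 0.260). Its 3.14, 2.96 and 2.01 FPKM in CUS libraries were lowest in CUS replicate 3, without which its log2 difference from control was -0.32 in place of -0.49.

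The other neuropilin ligands and partners, 14 semaphorins, plexins and adaptors, lay above 0 in 8 and below in 6 genes for running minus CUS (median 0.10), and in 1 and 13 genes for CUS minus control (median -0.13). For running minus control the counts were 3 above and 11 below (median -0.06). Without CUS replicate 3 the median was -0.00179 for running minus CUS and -0.0778 for CUS minus control. Plxnd1, the plexin of endothelial cells that binds Sema3e, had 11, 15.1 and 14.1 FPKM in running, against 10.2, 10.7 and 8.53 FPKM in CUS libraries, with no overlap (log2 difference 0.42, limma adjusted p = 0.0901). Plxna4, a partner of neuropilins in Sema3a signalling, differed by 0.38 between running and CUS (limma adjusted p = 0.0981). Both passed without CUS replicate 2 (limma adjusted p = 0.0392 for Plxnd1 and 0.0225 for Plxna4), a setting that called 1518 of the 14013 tested genes. Plxna2 differed by -0.39 between CUS and control (limma adjusted p = 0.253), and by -0.26 without CUS replicate 3.

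Hypoxia factors and their targets, a group to which Vegfa itself belongs, split nearly evenly. Of 31 tested genes of 32, 16 lay above 0 and 15 below for running minus CUS, 19 and 12 for CUS minus control, and 18 and 13 for running minus control. The medians were small and that for running minus CUS was -0.0180 without running replicate 2. The median for CUS minus control was 0.06, and 0.0174 without CUS replicate 3. Pfkfb3, a glycolytic regulator of sprouting endothelium and of hypoxic cells, had 10.7, 10.6 and 10.5 FPKM in running, against 6.64, 7.90 and 8.49 FPKM in CUS and 7.83, 7.41 and 7.15 FPKM in control libraries. The running libraries lay above all 6 others, with log2 differences of 0.45 from CUS (limma adjusted p = 0.0776, and 0.0282 without CUS replicate 2) and 0.48 from control (limma adjusted p = 0.0870, and 0.0374 without CUS replicate 1). Without CUS replicate 2, 1518 of the 14013 tested genes were called for running minus CUS. CUS replicate 1 is not among the libraries of running minus control, and leaving it out did not change that difference. Hif3a averaged 2.06 ± 0.499 FPKM in CUS and 3.77 ± 0.440 FPKM in control libraries, a log2 difference of -0.75 (limma adjusted p = 0.234), with no overlap. Ankrd37, a target of hypoxia-inducible factors, had 4.89, 4.72 and 5.80 FPKM in CUS and 3.68, 4.00 and 3.59 FPKM in control libraries, opposite in direction to Hif3a (limma adjusted p = 0.234). In running libraries Ankrd37 had 3.98, 4.00 and 3.95 FPKM, below all 3 CUS libraries. The log2 difference running minus CUS was -0.33, opposite in direction to Pfkfb3 (limma adjusted p = 0.0877, and 0.0375 without CUS replicate 2).

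Of 27 tested genes among 31 other angiogenic factors, 19 lay above 0 for running minus CUS (median 0.07), 6 for CUS minus control (median -0.16) and 6 for running minus control (median -0.07). The median for running minus CUS was not above 0 with length and GC trends removed or with library quality weights, and was -0.0264 without CUS replicate 3 and -0.0538 without running replicate 2. That for CUS minus control was -0.0819 without CUS replicate 3 and -0.24 without CUS replicate 1, and that for running minus control ranged from -0.18 to -0.0449 as libraries were left out. Apln, a peptide of endothelial tip cells, averaged 6.12 ± 1.16 FPKM in running and 4.37 ± 0.668 FPKM in CUS libraries (limma adjusted p = 0.101). Ackr3, a scavenger receptor for Cxcl12 and adrenomedullin, averaged 7.34 ± 0.357 FPKM in running and 4.73 ± 0.931 FPKM in control libraries, a log2 difference of 0.60 (limma adjusted p = 0.107, and 0.0373 without control replicate 1). Fgf2 averaged 1.08 ± 0.0321 FPKM in CUS and 1.47 ± 0.0737 FPKM in control libraries (limma adjusted p = 0.267). All 20 endothelial markers lay below 0 for running minus control (median -0.16), and 14 of 20 for CUS minus control (median -0.13). Both medians stayed below 0 under the 3 other scalings and with each library left out, but that for CUS minus control was -0.0125 without CUS replicate 3, and that for running minus control was -0.099 without running replicate 1 and -0.30 without running replicate 2. Of all tested genes, 56.2% lay below 0 for running minus control and 44.1% for CUS minus control. Other cell type lists differed too for running minus control: 11 of 12 mural cell markers lay below 0 (median -0.25), as did 9 of 9 markers of mature oligodendrocytes (median -0.44), and 5 of 5 blood genes lay above 0 (median 0.72). The oligodendrocyte median was -0.17 without control replicate 3, whose summed markers of that list were 1205 FPKM against at most 718 FPKM in any other library. For CUS minus control these 3 counts were the same, with medians of -0.23, -0.53 and 0.35. The oligodendrocyte median there was -0.26 without control replicate 3. None of these markers passed the adjusted threshold in either comparison, and their part in the VEGF genes was not tested. Pecam1 averaged 4.78 ± 0.885 FPKM in running, 5.09 ± 1.09 FPKM in CUS and 7.01 ± 0.230 FPKM in control libraries, with log2 differences from control of -0.52 for running (limma adjusted p = 0.249) and -0.45 for CUS (limma adjusted p = 0.267), which was -0.28 without CUS replicate 3. Itm2a and Ly6a had the lowest p of the endothelial markers for running minus CUS. Both were lower in running, with log2 differences of -0.40 and -0.24 (limma adjusted p = 0.113 and 0.118).

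The genes whose levels ran most like each of the 7 were looked up among 12326 genes with a mean of at least 1 FPKM. For Flt1 these were Prrc2a (r = 0.99 over 9 libraries), Cic (0.99) and Smarcc2 (0.98), and for Kdr they were Rnf31 (0.98), Smarcc2 (0.98) and Ube3b (0.96). Prrc2a had 76.2, 89.9 and 77.2 FPKM in running, 78.5, 82.1 and 57.5 FPKM in CUS and 86.6, 84.9 and 80.6 FPKM in control libraries, so CUS replicate 3 and running replicate 2 were again its ends. Slfn5 (0.98), Fyco1 (0.96) and Cep250 (0.96) ran most like Nrp2, and Drc3 (0.92), Zfp759 (0.91) and Ppm1e (0.90) most like Nrp1. Vegfa was closest to Zbtb7c (0.95), Epha10 (0.93) and Golm1 (0.92). Vegfb was closest to Atr (0.98), Phgdh (0.98) and G6pc3 (0.97), and Vegfc to Eid2 (0.97), Ece2 (0.97) and Rnf126 (0.97). None of these genes is among the 20 endothelial markers. They were selected for their likeness, so these r values carry no test.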

How the data were processed

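RNA-seq of 9 libraries was analysed from the table the authors deposited. Per the labels' protocols, polyadenylated RNA was made into random-primed libraries that do not mark strand. The submitters' processing notes name Bowtie2 2.2.5, RSEM 1.2.12, DESeq2 1.4.5 and mm10, with no role given. The authors deposited FPKM values rounded to 2 decimals, with no counts. The 65389 rows hold 35125 NCBI genes, and the other 30264 rows are at 0 throughout.

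The 14013 genes that reached 0.5 FPKM in 3 or more libraries were tested on log2(FPKM + 0.5), a scale that understates fold changes of low genes. One limma 3.58.1 model (R 4.3.3) held all 9 libraries and 3 group means, moderated with an intensity trend, and p-values were adjusted over all of these genes by the Benjamini-Hochberg method. It was checked on simulated data drawn independently for each gene, so the check does not cover spread that genes share within a library. Correlations and ratios used exact permutation tests over libraries (two-sided). Fragment depths were inferred from steps between low values and are rough: in each library 63.6% to 75.2% of these values lay within 0.2 of a whole step, and counting errors from them cover counting only.

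The genes and lists were chosen with earlier results of these data known. Named besides the 7 genes are the 2 genes with the lowest p in each list and comparison, of which some are given, and the 3 genes most alike each member. Alternatives covered pseudocounts, filters, scalings, library weights and leaving out each library.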

Additional observations from a re-analysis of the deposited data

How the results depend on the processing

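Each comparison of the 7 genes was recomputed under 20 alternatives, of which 9 leave out 1 library. Of the 7 genes, Vegfc between running and CUS was the only one to gain a call (1 of 7 genes called), with library quality weights (-0.42) and without CUS replicate 2. Leaving out each library in turn put the Vegfc difference between -0.44 and -0.29 and the number of the 7 genes called between 0 and 1. The weights raised the genes called among all tested to 2178 for running minus CUS, 8 for CUS minus control and 147 for running minus control. They raised those called among the listed genes to 50, 1 and 9. Leaving out libraries gave 0 to 1518 genes for running minus CUS, 1 to 6 for CUS minus control and 1 to 10 for running minus control, and 0 to 28, 0 to 3 and 0 to 1 among the listed genes. For running minus CUS, 0 genes were called without the filter, 3 after TPM rescaling, 2 after quantile normalization, 2 after median ratio scaling, 15 with only the 6 libraries compared (6 of them listed) and 0 with length and GC trends removed. For running minus control, 1 gene was called without the filter, 7 without the intensity trend, 24 with only the 6 libraries (1 of them listed) and 15 with length and GC trends removed. For CUS minus control, 0 genes were called at a minimum of 1 FPKM.

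Differences near 0 changed sign. TPM rescaling gave -0.0389 for Vegfb and -0.0247 for Nrp1 (CUS minus control), and 0.0167 for Kdr and 0.0252 for Nrp2 (running minus control). Quantile normalization gave -0.0346 for Vegfb (CUS minus control), and 0.0456 for Kdr, 0.0102 for Nrp2 and 0.00937 for Vegfd (running minus control). Median ratio scaling gave 6.69e-05 for Kdr and 0.00410 for Nrp2 (running minus control). The weights gave -0.0495 for Kdr and -0.0105 for Nrp1 (running minus CUS). Removing length and GC trends gave -0.0328 for Vegfb (CUS minus control), and 0.00443 for Pgf and 0.000365 for Vegfd (running minus control). Leaving out libraries gave, for running minus CUS, -0.11 to 0.32 for Kdr, -0.0219 to 0.14 for Nrp1 and -0.0210 to 0.25 for Flt4. For CUS minus control it gave -0.33 to 0.10 for Kdr, -0.0438 to 0.0962 for Nrp1, -0.0870 to 0.00115 for Vegfa and -0.0481 to 0.11 for Vegfb. For running minus control it gave -0.30 to 0.0388 for Flt1, -0.22 to 0.15 for Kdr, -0.13 to 0.0543 for Nrp2, -0.16 to 0.0444 for Pgf and -0.0823 to 0.0476 for Vegfd. Of the sums and ratios, TPM rescaling moved the ligand sum to -8.63 (CUS minus control), and quantile normalization moved Flt1 over Kdr to -1.23 (CUS minus control). Removing length and GC trends moved the ligand sum to -0.0632, the Vegfb percentage to -1.49 and Vegfa over Vegfb to 0.0360 (running minus CUS). The cause of these changes was not tested.

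No paired analysis was possible because replicate numbers were given in listing order and pair no libraries. With 3 libraries a group, the intervals allow changes of the receptors that these data could not detect, and Vegfc is further limited by its low level.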
